A study of Saccharomyces cerevisiae with 4 samples.

Results

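The genes described here encode the cyclins that start the yeast cell cycle and the proteins that copy the DNA. They comprised 40 genes, given by 41 names because TMP1 and CDC21 are names of the same gene. They were picked out by gene symbol or open reading frame from the deposited table, which matched 44 probe sets, and 40 probe sets, 1 per gene, entered the test among 5128 genes tested. MCM4, MCM5, MCM7 and POL3 stand in the table under the older names CDC54, CDC46, CDC47 and CDC2.

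Saccharomyces cerevisiae BY4741, a laboratory strain of mating type a with auxotrophic deletions that all samples share, was grown in MM4 medium to mid-exponential phase and moved to fresh medium. One group was kept for 15 min with quinine, an antimalarial alkaloid, at 1 g/L, dissolved in ethanol that made up 0.7% of the medium by volume. The other group, the control, was kept for 15 min without the drug, and the labels do not tell if that medium held ethanol. Each group had 2 Affymetrix Yeast Genome S98 arrays, and comparing them asks how the cells react early on to the drug. Nothing in the labels tells if replicates come from separate cultures, so p-values here cover only the spread among these arrays, possibly a technical one. The cells were not synchronised as far as the labels say. In such a population, fewer cells in a cycle stage and less RNA per cell cannot be told apart.

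In late G1 the cyclin Cln3, bound to the kinase Cdc28, relieves the repression of the transcription factors SBF and MBF, which share the subunit Swi6. They in turn switch on the G1 cyclins Cln1 and Cln2, the S-phase cyclins Clb5 and Clb6 and many replication genes. Sic1 holds the S-phase cyclin kinase inactive until it is destroyed. Origins of replication are bound throughout the cycle by the origin recognition complex (ORC), on which Cdc6 helps to load the Mcm2-7 helicase in G1. Cdc45 joins the helicase when origins fire, and the polymerases follow.

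With quinine, these genes were more often lower than higher, and none passed the test over all genes. The log2 fold change, quinine over control, was below 0 in 28 of the 40 genes (70.0%), against 53.3% of all genes tested. The median was -0.14, against -0.02 for all genes tested. The largest differences were those of ORC1 (-0.79), CDC45 (-0.62) and CLN3 (0.56), the last of these in the opposite direction. By limma with Benjamini-Hochberg adjustment over all genes, 0 members had an adjusted p under 0.05, lower or higher, and their adjusted p values lay between 0.131 and 0.998. Among all genes tested, the same rule called 0.0% as lower and 0.0195% as higher, which is 1 gene.

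At an unadjusted p under 0.05, 7 members were lower (17.5%) and 0 were higher, against backgrounds of 12.1% lower and 6.38% higher among all genes tested. The 7 were ORC1, ORC2, SIC1, MCM2, CDC45, POL1 and PRI2. In 14 members (35.0%) each quinine array was below each control array, against 29.9% of all genes tested. Each was above in 4 members (10%), against 19.8%, and the groups overlapped in the other 22. On the lower side both shares were not far above the background. With so few arrays, single ones moved these counts: without control replicate 2 the lower count at an unadjusted p under 0.05 was 1, against 8.05% of all genes tested in that fit, and without quinine replicate 1 it was 2, against 9.67%. Leaving out control replicate 1 put the members' median at -0.23, against -0.02 for all genes tested, and leaving out control replicate 2 put it at -0.07, against -0.05.

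**Figure D1:**
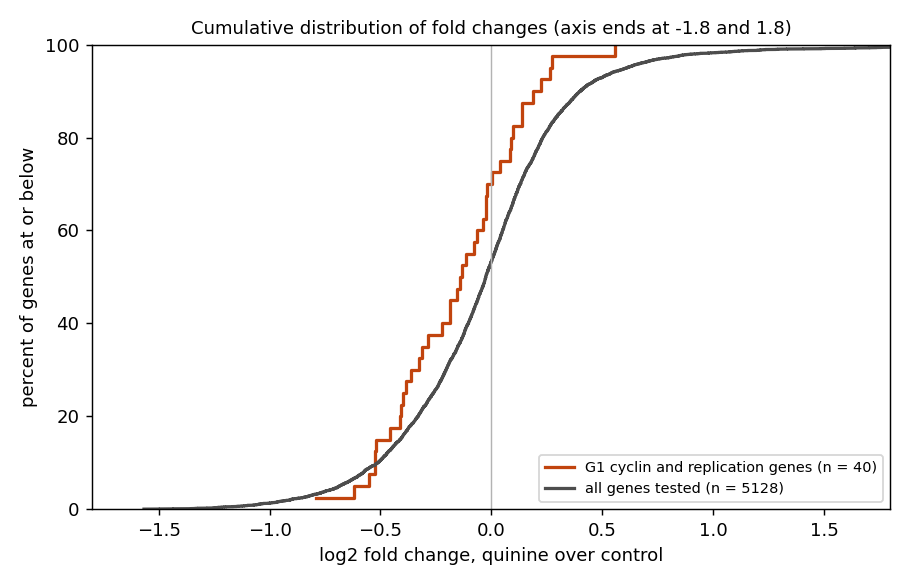
Cumulative share of genes (percent, vertical axis) at or below each log2 fold change, quinine over control (horizontal axis), for the 40 G1 cyclin and replication genes and for the 5128 genes tested. The curve of the 40 genes lies left of the other over the middle of the range, with medians of -0.14 and -0.02, and ends at 0.56.

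The arrays gave intervals of limited width. The 95% intervals of the log2 fold changes reached between 0.30 and 0.98 to either side, with a median of 0.45. In 33 members the interval included 0. In 35 members it lay wholly between -1 and 1, so that a 2-fold difference in either direction was outside it. The members whose interval reached past those limits were CLN3, CLB6, ORC1, CDC45 and RNR1.

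**Figure D2:**
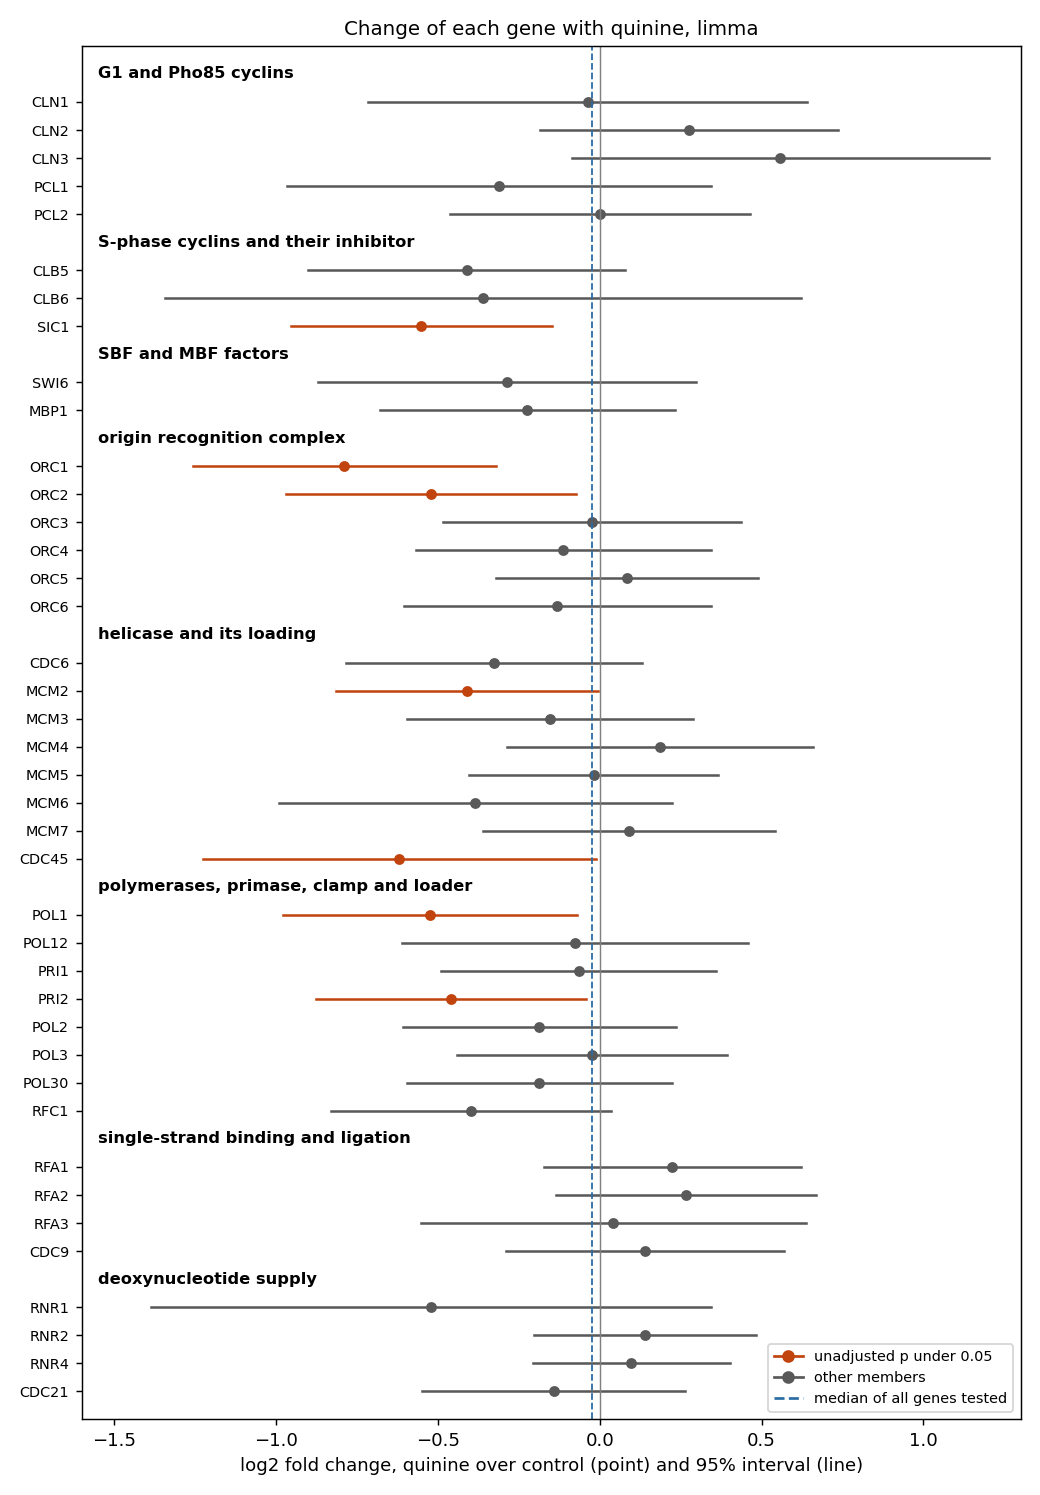
Log2 fold change, quinine over control, of each of the 40 genes (points) with its 95% interval from limma (lines), grouped by role. Orange marks the 7 genes with an unadjusted p under 0.05, all of them lower with quinine, and the dashed line the median of all genes tested, -0.02.

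Among the cyclins that act at the start of the cycle, CLN3 was higher with quinine and CLN1 was level. CLN3 (YAL040C), the most upstream G1 cyclin, had signals of 2132 and 1441 on the quinine arrays and 1386 and 1022 on the control arrays. Both quinine arrays lay above both control arrays, but the lower quinine value was close to the higher control value. In each group the array numbered 1 was the high one. The mean was 1787 ± 489 with quinine and 1204 ± 257 in controls (SD, n = 2 each). CLN3 thus had a log2 fold change of 0.56 ± 0.26 (SE) at an adjusted p of 0.325 in limma, and the value lay between 0.28 and 0.84 when 1 array was left out.

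CLN2 (YPL256C), a G1 cyclin that drives budding and the destruction of Sic1, had signals of 1076 and 1242 with quinine and 874 and 1044 in controls. The quinine arrays were again the higher pair, by a log2 fold change of 0.28 with a 95% interval from -0.18 to 0.73. Its paralog CLN1 (YMR199W) was at 1170 and 1682 with quinine and at 1180 and 1757 in controls. For CLN1 the arrays within a group differed far more than the groups did, and its log2 fold change was -0.04, with an interval from -0.72 to 0.64. In both groups the array numbered 2 was the high one.

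PCL1 and PCL2 encode G1 cyclins that bind the kinase Pho85 instead of Cdc28. PCL1 was at 468 and 613 with quinine and at 534 and 828 in controls, so the groups overlapped, with a log2 fold change of -0.31 and an interval from -0.97 to 0.34. PCL2 was at 347 and 350 with quinine, between its control values of 397 and 306. Over the 5 G1 and Pho85 cyclins the median log2 fold change was 0.001. Of the 5 genes, 3 lay above 0, against 2393 of the 5128 genes tested. When 1 array was left out, the median of the 5 reached 0.25 (control replicate 2) and -0.01 (quinine replicate 2).

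SIC1 (YLR079W), the inhibitor of the S-phase cyclin kinase, was lower on both quinine arrays. Its signals were 353 and 396 with quinine and 529 and 568 in controls, with a wide gap between the groups and little spread within them. The mean was 375 ± 30.5 with quinine and 549 ± 27.3 in controls (SD, n = 2 each). The log2 fold change of SIC1 was -0.55 ± 0.16 (SE), a quinine level at 0.683 of the control level. Its adjusted p in limma was 0.174.

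The S-phase cyclins themselves were also at lower values with quinine. CLB5 (YPR120C), the main S-phase cyclin, had signals of 175 and 235 with quinine and 265 and 273 in controls. The groups did not overlap, and quinine replicate 1 was the lowest array. The log2 fold change of CLB5 was -0.41 with an interval from -0.90 to 0.08, and it was -0.20 without quinine replicate 1 and -0.62 without quinine replicate 2. CLB6 (YGR109C), its paralog, was dim, at 24.5 and 51.4 with quinine and 38.8 and 53.7 in controls, and it was called Present on 1 of the 2 quinine arrays. Its groups overlapped, and its interval, from -1.34 to 0.62, was the widest of the 40. Over SIC1, CLB5 and CLB6 the median log2 fold change was -0.41, and it lay between -0.63 and -0.20 when 1 array was left out.

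The transcription factor genes showed overlapping groups. SWI6 (YLR182W), the shared subunit of SBF and MBF, was at 280 and 378 with quinine and 340 and 464 in controls. MBP1 (YDL056W), the DNA-binding subunit of MBF, was at 384 and 306 with quinine and 422 and 380 in controls. Their log2 fold changes were -0.29 and -0.22, both with intervals that included 0.

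**Figure D3:**
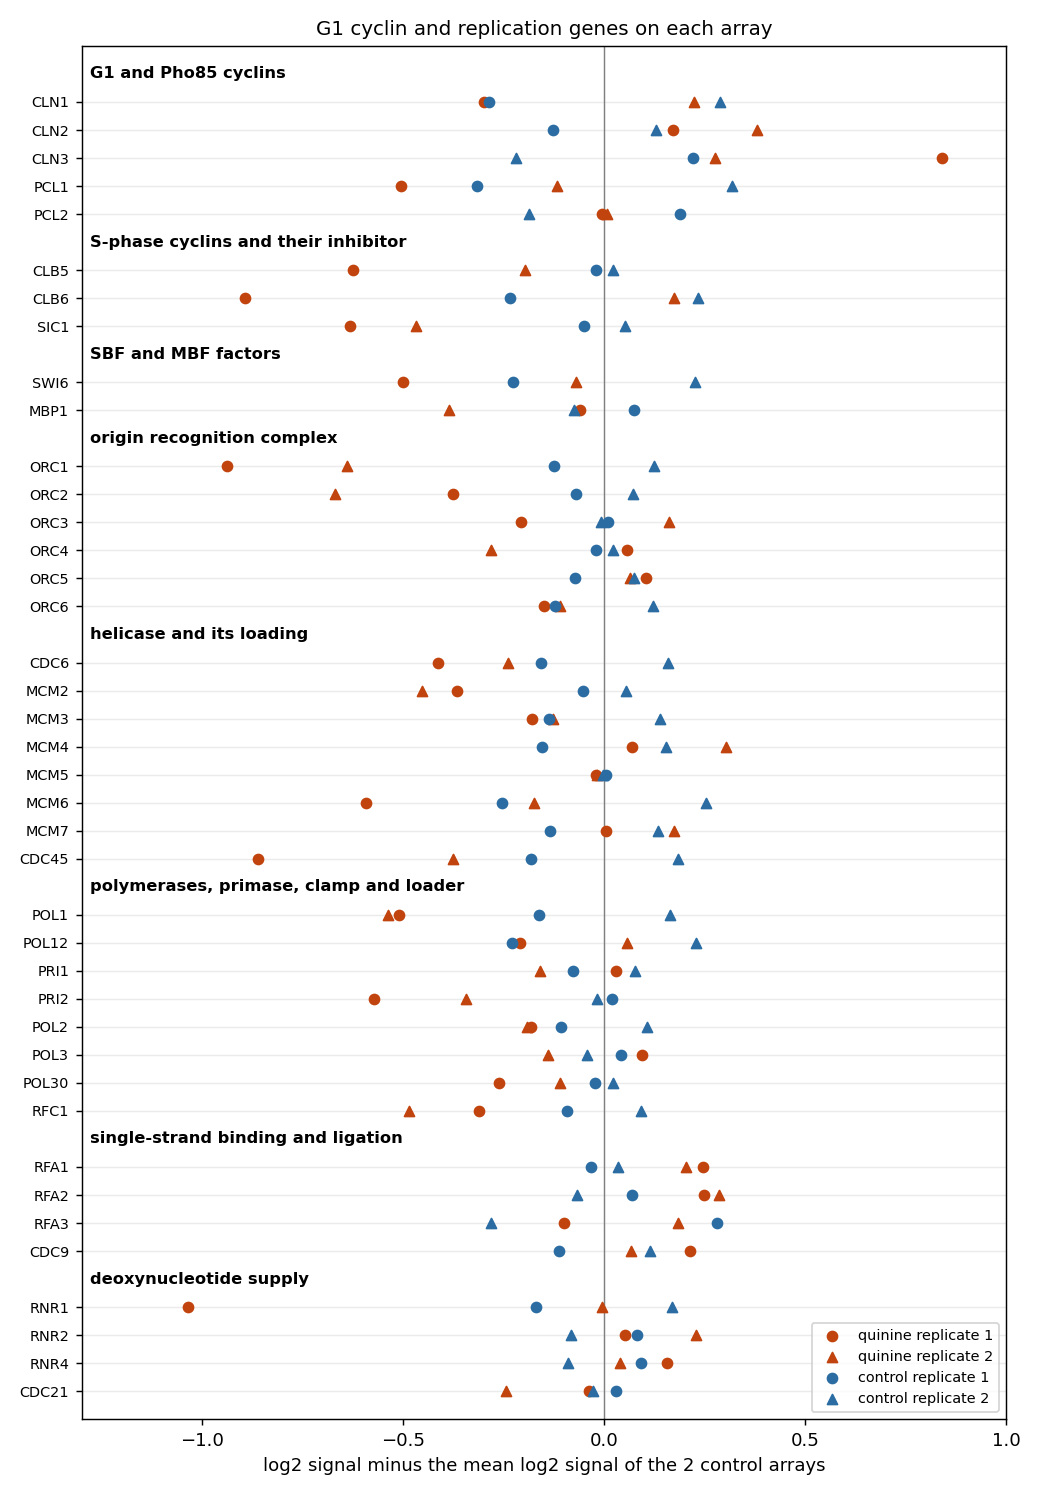
Log2 signal of each of the 40 genes on each of the 4 arrays (points), minus the mean of the 2 control arrays of that gene, grouped by role. ORC1, ORC2, SIC1 and PRI2 have both quinine arrays well left of both control arrays, while CLN1 and RFA3 have arrays of both groups on either side of 0.

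In the origin recognition complex the 6 genes did not share one value. ORC1 (YML065W), the largest subunit and an ATPase, had signals of 245 and 302 with quinine and 431 and 512 in controls. Every quinine value was well below every control value, and the mean was 273 ± 39.9 with quinine and 472 ± 57.5 in controls (SD, n = 2 each). This was the largest difference among the 40 genes, a log2 fold change of -0.79 ± 0.19 (SE) and a quinine level at 0.579 of the control level. The adjusted p of ORC1 in limma was 0.131, and its log2 fold change lay between -0.94 and -0.64 when 1 array was left out.

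ORC2 (YBR060C), another core subunit, was at 519 and 423 with quinine and at 641 and 707 in controls, and the groups did not overlap. Its log2 fold change was -0.52 ± 0.18 (SE), with an adjusted p of 0.224 in limma. ORC3, ORC4, ORC5 and ORC6 had overlapping groups. Their log2 fold changes were -0.02 for ORC3, -0.11 for ORC4, 0.08 for ORC5 and -0.13 for ORC6. The intervals of these 4 subunit genes ran from -0.60 at the lowest to 0.49 at the highest, and 1 of the 2 control arrays had a Present call for ORC6. The median of the 6 genes was -0.12.

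The genes for loading and starting the helicase varied likewise. CDC6 (YJL194W), the loading factor, had signals of 279 and 314 with quinine and 333 and 414 in controls. The quinine arrays were the lower pair, with a small gap, and the log2 fold change was -0.33 with an interval from -0.78 to 0.13. CDC45 (YLR103C), which joins the helicase at the firing of origins, was at 69.6 and 97.4 with quinine and 111 and 144 in controls. Its groups did not overlap, but the nearest arrays differed less than the arrays within a group did. CDC45 had a log2 fold change of -0.62 ± 0.25 (SE) and an adjusted p of 0.267 in limma, and the value was -0.38 without quinine replicate 1 and -0.86 without quinine replicate 2.

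Of the 6 MCM genes, whose products form the ring of the replicative helicase, MCM2 (YBL023C) was the clearest. Its signals were 1142 and 1075 with quinine and 1418 and 1527 in controls, close within each group and apart between them. The log2 fold change of MCM2 was -0.41 ± 0.16 (SE), and lay between -0.46 and -0.36 when 1 array was left out. The adjusted p in limma was 0.269. MCM6, at 172 and 230 with quinine and 217 and 309 in controls, had a value of similar size, -0.38, but overlapping groups. For MCM3, MCM4, MCM5 and MCM7 the log2 fold changes were -0.15, 0.19, -0.02 and 0.09. MCM5 was almost the same on all 4 arrays, at 602 and 604 with quinine and 612 and 609 in controls. Although MCM5 counts among the 14 members whose quinine arrays lay lower, its interval ran from -0.40 to 0.36. The median over CDC6, CDC45 and the 6 MCM genes was -0.24, and it was -0.38 at the lowest and -0.08 at the highest when 1 array was left out.

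DNA polymerase alpha and its primase, which lay down the RNA and DNA primers, are encoded by POL1, POL12, PRI1 and PRI2. POL1 (YNL102W), the catalytic subunit, had signals of 608 and 596 with quinine and 773 and 969 in controls. The quinine arrays were nearly equal and both below the controls, at 602 ± 8.32 with quinine and 871 ± 139 in controls (SD, n = 2 each). POL1 had a log2 fold change of -0.52 ± 0.18 (SE) at an adjusted p of 0.226 in limma. PRI2 (YKL045W), the large primase subunit, was at 177 and 208 with quinine and 267 and 260 in controls, again without overlap. The log2 fold change of PRI2 was -0.46 ± 0.17 (SE), with an adjusted p of 0.242 in limma. POL12 and PRI1, the regulatory subunit and the catalytic primase subunit, had overlapping groups and log2 fold changes of -0.08 and -0.07.

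The enzymes that extend the new strands were represented by RFC1, POL30, POL2 and POL3. RFC1 (YOR217W), the large subunit of the clamp loader, had signals of 831 and 736 with quinine and 967 and 1099 in controls. Its groups did not overlap, and its log2 fold change was -0.40 with an interval from -0.83 to 0.03. POL30, the sliding clamp PCNA, was at 1075 and 1195 with quinine and 1270 and 1310 in controls, and POL2, the catalytic subunit of polymerase epsilon, at 1140 and 1132 with quinine and 1200 and 1393 in controls. Both had quinine arrays just below the controls, with log2 fold changes of -0.19 each. POL3, the catalytic subunit of polymerase delta, was at -0.02 with overlapping groups. All 8 genes of the polymerases, primase, clamp and clamp loader had a log2 fold change below 0, against 53.3% of all genes tested. Their median was -0.19, against -0.02 for all genes tested. However, POL12, PRI1 and POL3 came out above 0 in some of the fits that left out 1 array. In 5 of the 8 (62.5%) each quinine array was below each control array, against 29.9% of all genes tested.

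**Figure D4:**
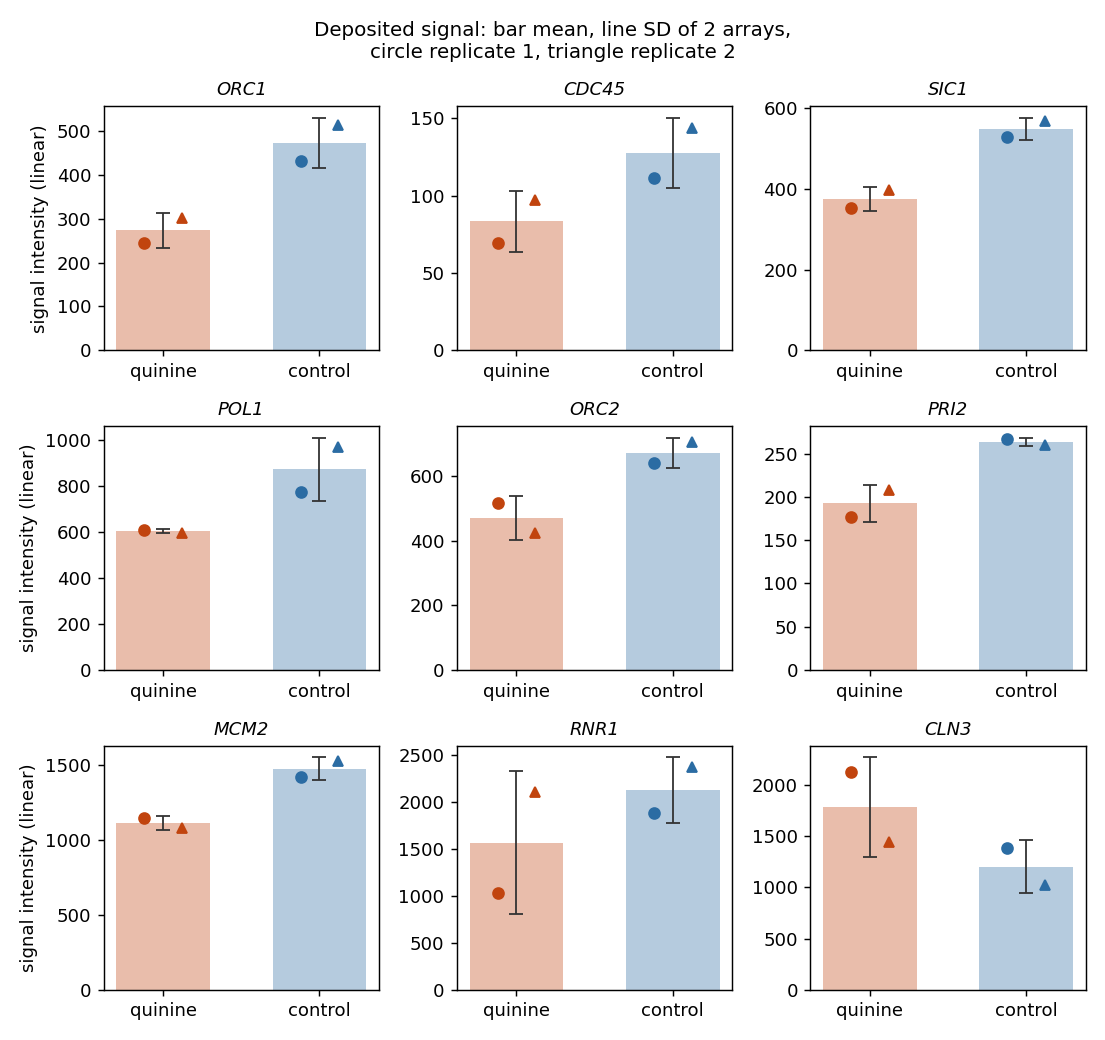
Deposited linear signal intensity of the 7 genes with an unadjusted p under 0.05 and of RNR1 and CLN3, with quinine (left) and in controls (right). Bars are means, lines the SD of the 2 arrays, circles replicate 1 and triangles replicate 2. The 7 genes were picked by that p from these same arrays, so their lack of overlap between groups is not separate evidence. The quinine arrays of RNR1, at 1028 and 2101, enclose the lower control value.

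Replication protein A, which coats single-stranded DNA, and DNA ligase gave values on the other side of 0. RFA1, the large subunit, was at 1390 and 1348 with quinine and at 1144 and 1199 in controls. RFA2, the middle subunit, was at 1489 and 1527 with quinine and at 1314 and 1196 in controls. For both, each quinine array was above each control array, with log2 fold changes of 0.22 and 0.27 and intervals that reached down to -0.17 and -0.14. RFA3, the small subunit, was at 1360 and 1655 with quinine and 1772 and 1200 in controls, and here the control arrays enclosed the quinine arrays. CDC9, the DNA ligase that seals nicks, had a log2 fold change of 0.14 with overlapping groups. All 4 genes lay above 0, with a median of 0.18, and the median was between 0.19 and 0.26 when 1 array was left out. RFA3 itself was only at 0.04, with an interval from -0.55 to 0.64. It came out below 0 in 2 of the fits that left out 1 array.

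Among the genes for the supply of deoxynucleotides, RNR1 hinged on 1 array and CDC21 had quinine arrays just below the controls. RNR1 (YER070W), the large subunit of ribonucleotide reductase, had signals of 1028 and 2101 with quinine and 1876 and 2371 in controls. Quinine replicate 1 stood well below the other 3 arrays. The log2 fold change of RNR1 was -0.52 ± 0.35 (SE), but it was -0.01 without quinine replicate 1 and -1.04 without quinine replicate 2. RNR2 and RNR4, the genes of the small subunits, had overlapping groups and log2 fold changes of 0.14 and 0.10. The interval of RNR4, from -0.21 to 0.40, was the narrowest of the 40. CDC21 (YOR074C), thymidylate synthase, was at 392 and 340 with quinine and at 411 and 395 in controls, a log2 fold change of -0.14. Its groups did not overlap, but the nearest arrays were almost equal, and its interval ran from -0.55 to 0.26.

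The authors' deposited table marked probe sets of 3 of the 40 genes, all lower with quinine, which is 7.5% against a background of 8.33% lower marks among all genes tested. The marked genes were ORC1, SIC1 and MCM2, with folds of -1.73, -1.47 and -1.33 in the authors' deposited table, where a minus sign means lower with quinine. No member carried a mark as higher, against 4.33% of all genes tested.

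Other genes of the same pathway were taken from lists. Of 25 further genes of G1/S control, all tested, 18 had a log2 fold change below 0 (72.0%, against 53.3% of all genes tested), with a median of -0.09 that ran from -0.16 to -0.05 when 1 array was left out. At an unadjusted p under 0.05, 3 were lower (CDC34, HSL1 and MSA1), which is 12% against 12.1% of all genes tested. None were higher, against 6.38%, and 0 passed over all genes in limma. In 7 of the 25 genes (28.0%) each quinine array was below each control array, against 29.9% of all genes tested. Each was above in 1 (4.0%), against 19.8%. CDC34, the ubiquitin-conjugating enzyme through which Sic1 is destroyed, was at 417 and 360 with quinine and 530 and 502 in controls. MSA1, an activator of G1-specific transcription, was at 643 and 623 with quinine and 828 and 930 in controls. Both had quinine arrays below control arrays, with log2 fold changes of -0.41 and -0.47. HSL1, a kinase of the morphogenesis checkpoint, had a log2 fold change of -0.50.

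Of 41 further replication genes 38 were tested, and 29 of them had a log2 fold change below 0 (76.3%, against 53.3% of all genes tested), with a median of -0.22. When 1 array was left out this median ran from -0.34 to -0.10. At an unadjusted p under 0.05, 4 were lower (10.5%, against 12.1% of all genes tested) and 0 higher, against 6.38%, and 0 passed over all genes in limma. TOP1, which encodes DNA topoisomerase I, was at 277 and 325 with quinine and 515 and 643 in controls. Its log2 fold change of -0.94 ± 0.19 (SE) had an adjusted p of 0.0958 in limma. TOP2 (topoisomerase II), DPB4 (a subunit of polymerase epsilon) and DUT1 (dUTPase) had log2 fold changes of -0.58, -0.54 and -0.45. In 18 of the 38 genes (47.4%) each quinine array was below each control array, against 29.9% of all genes tested. Each was above in 1 (2.63%), against 19.8%. One gene singled out after its values were seen was DFR1, dihydrofolate reductase, whose signal was 804 and 724 with quinine and 28.6 and 1317 in controls. Its log2 fold change of 1.98 therefore rested on 1 dim control array.

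Other programmes differed between the groups or between the arrays of a group. The 4 arrays had median signals between 596 and 636, and all 7 tested genes that mark mating type a, such as STE2 and MFA1, were called Present on all 4 arrays. Their summed signal was 35583 and 29991 with quinine and 33084 and 27882 in controls. Of 3 tested genes of mating type alpha, the receptor gene STE3 had signals between 27.4 and 47.6 with Present calls on all 4 arrays. SAG1 was at 653 and 656 with quinine and 527 and 600 in controls, also Present on all 4 arrays. The remaining gene, MF(ALPHA)2, lay between 136 and 164. The summed signal of the 3 was 862 and 825 with quinine and 737 and 776 in controls. The 10 ribosome biogenesis genes looked at, all below 0 (against 53.3% of all genes tested), had a median log2 fold change of -0.86. They stood at -0.84 and -0.81 on the quinine arrays relative to the control mean. They were chosen with earlier results of these data known, and included SSF1, whose -1.57 was the lowest of all genes tested. A set of 10 general stress genes stood at 0.81 on quinine replicate 1, -0.14 on quinine replicate 2, 0.50 on control replicate 1 and -0.50 on control replicate 2. The members' medians on the same arrays were -0.18, -0.11, -0.08 and 0.08. The part of these programmes in the differences of the cyclin and replication genes was not tested.

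**Figure D5:**
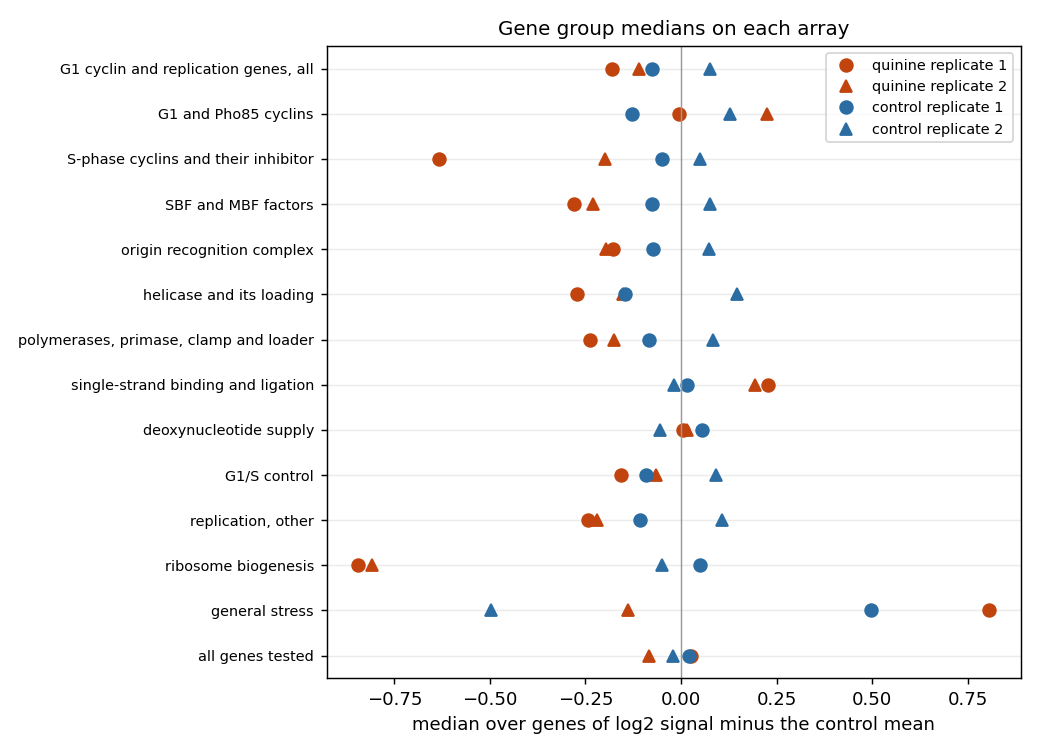
Median over the genes of each group of the log2 signal on each array minus the control mean (horizontal axis), for all 40 genes, the 8 roles, the 2 lists of further pathway genes, 10 ribosome biogenesis genes, 10 general stress genes and all genes tested. The ribosome biogenesis genes have both quinine arrays near -0.8, the stress genes separate by replicate number, and the 40 genes lie between -0.18 and 0.08.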

How the data were processed

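The deposited values are linear signal intensities, 1 per probe set and array, and the submitters' processing notes name MAS5 without a role or version. The authors' deposited table adds group means, Present calls as a percent of a group's arrays, and folds with bounds, which are the authors' scores. Any scaling between arrays goes unstated in the labels. Of 7519 probe sets, 5305 named 1 gene of the RefSeq R64 table. No build is named for the array, so no coordinates are given. Genes Present on at least 2 of 4 arrays were tested, each by its brightest probe set, as log2 signal without pseudocount. The groups were compared with limma 3.58.1 (R 4.3.3), by linear fits and moderated variances with a trend on the mean signal, with 2 residual and 3.89 prior degrees of freedom. A permutation test of 2 against 2 arrays cannot go below a two-sided p of 0.333, so none is given. Values on every array are given for members with an unadjusted p under 0.05, for those without overlap and a log2 fold change of at least 0.3 in size, and for CLN1, CLN2, CLN3, CLB5, CLB6, SIC1, SWI6, MBP1, CDC6, CDC45, POL1, RNR1 and CDC21. From each list of further genes, up to 4 genes with an unadjusted p under 0.05 are named, by size. Members and lists were chosen with earlier results of these data known. Precision is limited by the number of arrays.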

Additional observations from a re-analysis of the deposited data

How the results depend on the processing

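No member had an adjusted p under 0.05 in limma under quantile normalization, median centring, a pseudocount of 16, no filter or a stricter filter on Present calls, a mean over probe sets, no variance trend, or without any 1 array (lowest adjusted p 0.103). The replicate number as a block, with 1 residual degree of freedom, called 11 members (27.5%), against 28.5% of all genes tested (1461 genes). The labels do not say what a number shares, and the deviations of same-numbered arrays correlated at 0.616 over all genes tested. The 11 were CLN3, as higher, and CLB5, SIC1, ORC1, ORC2, MCM2, CDC45, POL1, PRI2, RFC1 and RNR1. With the block, 13 members were lower and 1 higher at an unadjusted p under 0.05, against 22.0% and 15.6% of all genes tested. Quantile normalization gave 1 higher member at that p (all genes 7.82%), and median centring gave 7 members with both quinine arrays above (all genes 22.6%). Genes called over all genes were 0 under quantile normalization, median centring and no variance trend, 2 with the pseudocount and 0 to 122 without 1 array. ORC3 was at 0.0167 and MCM5 at 0.00 under quantile normalization, and PCL2 at -0.0144 on the log2 scale from the authors' deposited table. The cause was not tested.

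Without 1 array, 0 members were called, and 1 to 7 lower and 0 to 1 higher members had an unadjusted p under 0.05, against 4.99% to 9.83% lower and 3.0% to 9.13% higher among all genes tested. With fewer arrays to overlap, 17 to 24 members had lower and 8 to 9 higher quinine arrays, against 35.5% to 47.0% and 25.6% to 39.7% of all genes tested. Median log2 fold changes ran from -0.2302 to -0.0721 for the members, -0.0059 to 0.2499 for G1 and Pho85 cyclins, -0.6338 to -0.198 for S-phase cyclins and their inhibitor, -0.1969 to -0.0616 for ORC, -0.3773 to -0.0763 for the helicase and its loading, -0.3001 to -0.1217 for polymerases, 0.1926 to 0.2567 for single-strand binding and ligation and -0.0818 to 0.0375 for deoxynucleotide supply. They ran from -0.1602 to -0.0549 for further G1/S control genes, -0.3397 to -0.1048 for further replication genes, 0.0169 to 0.0853 for histones, -0.3871 to -0.0912 for G2/M, 0.0257 to 0.2722 for M/G1, -0.091 to 0.0794 for budding and cell wall genes, -0.9924 to -0.7306 for ribosome biogenesis and -0.2272 to 0.8641 for general stress. Of the 40 members 29 kept their direction in all 4 such fits, and 11 did not. Those 11 ran from -0.3247 to 0.2499 (CLN1), -0.6282 to 0.0052 (PCL1), -0.1869 to 0.1886 (PCL2), -0.8944 to 0.1727 (CLB6), -0.2078 to 0.162 (ORC3), -0.2828 to 0.0566 (ORC4), -0.0453 to 0.2242 (MCM7), -0.3059 to 0.152 (POL12), -0.1607 to 0.0301 (PRI1), -0.14 to 0.0945 (POL3) and -0.2402 to 0.3227 (RFA3). The number of arrays limits the precision of all these values.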

Other observations

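Genes of other cycle stages, histone genes and budding genes were looked at in the same way. Of 20 genes of the G2 phase and mitosis, all tested, 13 had a log2 fold change below 0 (65.0%, against 53.3% of all genes tested), with a median of -0.22. At an unadjusted p under 0.05, 4 were lower (20.0%, against 12.1% of all genes tested) and 0 higher, against 6.38%, and 0 passed over all genes in limma. MCM1, which encodes a transcription factor of G2/M and M/G1 genes, was at 1109 and 964 with quinine and at 1987 and 1903 in controls. Its quinine arrays were far below its control arrays, with a log2 fold change of -0.91 ± 0.17 (SE) and an adjusted p of 0.0834 in limma. CDC20, an activator of the anaphase-promoting complex, the transcription factor gene SWI5 and the B-type cyclin gene CLB3 had log2 fold changes of -0.61, -0.55 and -0.50. That of CDC20 lay between -0.92 and -0.29 when 1 array was left out, the last without control replicate 2. SWI5 was at 330 and 320 with quinine and at 466 and 482 in controls.

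Genes of the M/G1 boundary, many of them for daughter cell separation, had a median log2 fold change of 0.14. PCL9, SWI4 and RME1 were in this list and also among the further genes of G1/S control. Of 17 tested, 5 were below 0 (29.4%, against 53.3% of all genes tested), and 0 passed at an unadjusted p under 0.05 or over all genes in limma, against 12.1% lower and 6.38% higher at that p. In 7 of the 17 (41.2%) each quinine array was above each control array, against 19.8% of all genes tested. Each was below in 1 (5.88%), against 29.9%. The 5 tested histone genes had a median of 0.06, with 2 below 0 (40.0%, against 53.3% of all genes tested), and ran from -0.17 to 0.24. Of 15 tested budding and cell wall genes of G1/S, 8 were below 0 (53.3%, against 53.3% of all genes tested). Each quinine array was below each control array in 3 (20.0%), against 29.9%, and above in 0, against 19.8%. At an unadjusted p under 0.05 in limma, 2 were lower (13.3%, against 12.1% of all genes tested) and 0 higher, against 6.38%. The 2 at that p were MNN1, a mannosyltransferase, and RSR1, a GTPase of bud site selection, with log2 fold changes of -0.78 and -0.60. That of MNN1 lay between -1.11 and -0.44 when 1 array was left out, the last without quinine replicate 2.

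POL2 and ORC5 lie next to each other in the gene order of the RefSeq table, and their log2 fold changes were -0.19 and 0.08. A further 3 probe sets carried POL2 in their gene text but a chromosome record as their accession, and were left out of the test. Their log2 differences, quinine minus control, were -0.16, -0.12 and -0.09. The other probe set of CDC21 was at 46.4 and 58.8 with quinine and 58.4 and 75.2 in controls, a log2 difference of -0.34.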
